A study of Homo sapiens with 6 samples.

Results

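Accessible chromatin was examined at the 9 genes that encode the canonical Notch receptors and ligands, which are the 4 receptors NOTCH1, NOTCH2, NOTCH3 and NOTCH4 and the 5 ligands DLL1, DLL3, DLL4, JAG1 and JAG2. The genes were chosen by family membership, not by any measured value, and are 9 of the 20033 protein-coding genes of the GENCODE annotation of hg38. For each gene, peaks were collected from the promoter (3 kb on each side of the transcription start site, TSS), from the rest of the gene body, and from 20 kb on each side of the gene, and these together are called its locus here. The loci span 779.9 kb, of which 472.0 kb belong to the receptors and 307.8 kb to the ligands.

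The cells were neural progenitor cells (NPCs) derived from H1, an established human embryonic stem cell line. The 3 genotypes, each with 2 replicates (6 samples in all), were profiled with ATAC-seq, an assay that uses Tn5 transposase to cut and tag open chromatin. WT NPCs carry neither deletion. In dKO NPCs the H3K27me3 demethylases UTX and JMJD3 were both disrupted by Cas9 targeting of the catalytic JmjC domain in the stem cells, so these cells come from edited clones, and how many clones were used is not given in the sources used here. The group called dKO + BAF53B is the same double knockout carrying lentiviral BAF53B, a neuron-specific subunit of the BAF chromatin remodelling complex, and no vector control was analysed here. WT and dKO NPCs were taken at passage 2, and the passage of the dKO + BAF53B cells is not given in the sources used here.

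The replicates of a genotype share 1 pooled peak list, so 3 lists were compared and no difference below has a replicate check, an SD or a p-value. The lists hold 7880 peaks in WT, 25439 in dKO and 16948 in dKO + BAF53B, with a median pileup of 36, 41 and 38 fragments. Pileup is the number of extended fragments stacked at the summit of a peak, and the local background is the number that the caller would have placed there from the surrounding signal. The genome background of a list, which scales with its depth, was 6.33 fragments in WT, 6.81 in dKO and 6.78 in dKO + BAF53B, so the lists differ little in depth by this measure but much in the number of peaks. Of 6 neural progenitor markers, promoter peaks were listed for 1 in WT (VIM), 4 in dKO and 3 in dKO + BAF53B, while PAX6 and NES had none in any list. Of 4 pluripotency markers, LIN28A alone had a promoter peak, in dKO and dKO + BAF53B. Another of them, POU5F1, lies in the major histocompatibility complex, where no list holds any peak (see NOTCH4 below). Its lack of a peak therefore cannot be read. Promoter peaks were listed for 1, 2 and 1 of 4 neuronal, 0, 2 and 1 of 4 mesenchymal and 0, 1 and 1 of 4 endothelial markers in WT, dKO and dKO + BAF53B. Over all protein-coding genes the shares were 28.2%, 56.4% and 45.0%. With so few genes in each marker set, the counts are not read as a change of cell type. The part of cell composition in the values below was not tested, and in these bulk samples fewer cells with an open site cannot be told apart from less opening per cell. The promoters of KDM6A (UTX) and KDM6B (JMJD3) lie outside the deleted domain, so their peaks do not check the knockout.

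Notch signalling passes between touching cells. A Delta-like (DLL) or Jagged (JAG) ligand on 1 cell binds a NOTCH receptor on its neighbour, the receptor is cut by ADAM proteases and then by γ-secretase, and the freed intracellular domain enters the nucleus and joins RBPJ and a MAML coactivator to switch on genes such as those of the HES family. In the developing brain this exchange keeps part of the progenitors undifferentiated while their neighbours become neurons. DLL1, DLL4, JAG1 and JAG2 activate receptors from the neighbouring cell, whereas DLL3 is mainly held inside the cell and is known to inhibit Notch in the cell that makes it.

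The sequences under the summits of the promoter and intronic peaks that the results turn on are shown here because the peaks differ in kind. They are the promoters of NOTCH1 and DLL3 (dKO and dKO + BAF53B), the promoter of JAG1 (all lists), a GC-rich first intron of NOTCH3 (dKO alone) and a repeat-rich intron of JAG2 (all lists). Each is read from hg38 on the strand of the gene, within 100 bases of the dKO summit, and all of these genes but DLL3 lie on the minus strand. Capitals mark a GC box (GGGCGG or its complement CCGCCC), an E-box (CAGCTG) or a SOX-type match (ACAAAG or CTTTGT), and in the JAG2 intron the repeated unit GTGCCCTG. The upstream stretch of NOTCH1 (chr9:136546194-136546394) holds none of the 8 motifs that were searched.
NOTCH1 upstream: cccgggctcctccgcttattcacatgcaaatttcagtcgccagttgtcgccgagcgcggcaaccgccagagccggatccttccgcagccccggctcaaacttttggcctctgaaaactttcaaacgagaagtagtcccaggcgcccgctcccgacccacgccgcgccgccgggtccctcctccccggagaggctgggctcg
The first intron of NOTCH3 (chr19:15200068-15200268) holds 2 GC boxes and is 82.6% G and C.
NOTCH3 intron 1: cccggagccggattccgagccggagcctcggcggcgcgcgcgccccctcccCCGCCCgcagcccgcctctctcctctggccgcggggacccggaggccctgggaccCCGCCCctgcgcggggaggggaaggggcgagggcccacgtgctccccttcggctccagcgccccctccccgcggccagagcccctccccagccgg
The DLL3 promoter (chr19:39498009-39498209, plus strand) holds 1 GC box, 1 E-box and 2 SOX-type matches.
DLL3 promoter: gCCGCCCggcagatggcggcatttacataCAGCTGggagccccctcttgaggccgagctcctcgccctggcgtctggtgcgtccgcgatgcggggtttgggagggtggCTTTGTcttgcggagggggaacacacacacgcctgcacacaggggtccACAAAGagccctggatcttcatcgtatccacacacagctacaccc
The JAG1 promoter (chr20:10674000-10674188), shown up to the TSS, holds 1 GC box.
JAG1 promoter: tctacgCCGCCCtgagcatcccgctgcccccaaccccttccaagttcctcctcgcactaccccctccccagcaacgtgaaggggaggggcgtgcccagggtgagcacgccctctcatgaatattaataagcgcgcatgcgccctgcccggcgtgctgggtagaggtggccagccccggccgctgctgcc
The second intron of JAG2 (chr14:105162462-105162662) holds 6 copies of the unit and no CpG dinucleotide.
JAG2 intron 2: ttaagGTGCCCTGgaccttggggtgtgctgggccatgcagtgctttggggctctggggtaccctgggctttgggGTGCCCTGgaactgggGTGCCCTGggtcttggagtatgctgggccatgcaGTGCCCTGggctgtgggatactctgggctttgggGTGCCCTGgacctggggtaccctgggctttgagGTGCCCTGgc

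The question for the promoters is which receptor and ligand genes have an accessible start site in each genotype. In WT NPCs a promoter peak was listed for 1 of the 9 genes, the ligand JAG1. In dKO NPCs there were 4, at the receptors NOTCH1 and NOTCH3 and the ligands DLL3 and JAG1, and in dKO + BAF53B NPCs there were 3, at NOTCH1, DLL3 and JAG1. No promoter had a peak in WT and lacked one in dKO. With 1 WT promoter peak among the 9 genes, only JAG1 could have been such a case. Such genes were also rare among all protein-coding genes. NOTCH2, NOTCH4, DLL1, DLL4 and JAG2 had no promoter peak in any list.

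These counts follow the lists as a whole. Over all protein-coding genes a promoter peak was listed for 28.2% in WT, 56.4% in dKO and 45.0% in dKO + BAF53B, so the 9 genes lie below those shares in every list. A promoter peak in dKO without one in WT was seen for 3 of the 9 genes (NOTCH1, NOTCH3 and DLL3) and for 28.6% of all genes. A promoter peak in both dKO and dKO + BAF53B without one in WT was seen for 2 of the 9 (NOTCH1 and DLL3) and for 16.2% of all genes. With 9 genes, these shares are near the background. With each list cut to its 7880 most significant peaks, promoter peaks remained at 1 of the 9 genes in each, JAG1 in WT and in dKO + BAF53B and NOTCH1 in dKO. Among receptors the promoter counts were 0, 2 and 1 of 4 in WT, dKO and dKO + BAF53B, and among ligands they were 1, 2 and 2 of 5.

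**Figure D1:**
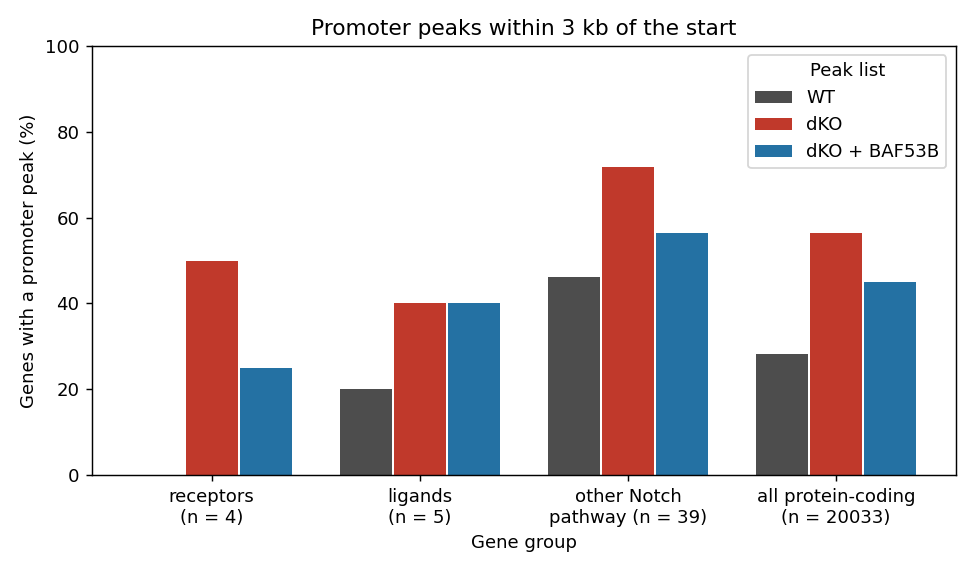
Share of genes (%, vertical axis) with a peak within 3 kb of the TSS in the WT (grey), dKO (red) and dKO + BAF53B (blue) lists, for the 4 receptors, the 5 ligands, 39 other Notch pathway genes and all 20033 protein-coding genes. The bars of receptors and ligands are lower than that of the other pathway genes in each list, and no receptor has a promoter peak in WT.

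Counted over whole loci, 4 peaks were listed in WT, 18 in dKO and 9 in dKO + BAF53B. At least 1 peak was present in the locus of 4 of the 9 genes in WT, 7 in dKO and 6 in dKO + BAF53B, beside 47.0%, 78.4% and 67.9% of all protein-coding genes. The 18 dKO peaks comprise 4 at promoters, 5 in gene bodies and 9 in the 20 kb flanks, and 4 of them lie in the promoter window of a neighbouring gene (SEC16A, TIMM50, SELENOV and CHAC1). Peaks of the 3 lists that overlapped were merged into regions, which gave 18 regions, each of them with a dKO peak. Of these, 4 were present in all 3 lists, 5 in dKO and dKO + BAF53B, and 9 in dKO alone. Thus 14 of the 18 dKO peaks had no overlapping WT peak, beside 75.6% of all dKO peaks, and 9 of the 18 had no overlapping dKO + BAF53B peak, beside 55.7%. Both shares are again close to those of the whole dKO list. In the other direction, all 4 WT peaks overlapped a dKO peak, beside 6255 of 7880 over the whole WT list.

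Receptor and ligand loci were also compared by the lists in which their peaks occurred. A WT peak overlapped 0 of the 6 dKO peaks in receptor loci and 4 of the 12 in ligand loci. Over the whole dKO list 75.6% of peaks had no overlapping WT peak. With so few peaks, this contrast is not read as a difference between receptors and ligands. All 4 regions present in WT belong to ligand loci, and no WT peak was listed in any receptor locus. The receptors held 0, 6 and 3 peaks in WT, dKO and dKO + BAF53B, and the ligands held 4, 12 and 6. Per 100 kb of locus this is 0, 1.27 and 0.636 peaks for receptors and 1.30, 3.90 and 1.95 for ligands, beside 0.608, 1.70 and 1.16 over the loci of all genes. The receptor density depends on NOTCH2 and NOTCH4, which hold no peak in any list: without these 2 loci the receptors have 0, 3.46 and 1.73 peaks per 100 kb (an alternative chosen after the data were seen). Of the 4 WT peaks of ligand loci, 2 are promoters of neighbouring genes (TIMM50 and CHAC1). With the same cut, the dKO list holds 3 peaks in receptor loci and 3 in ligand loci, beside 4 in the ligand loci of WT, whose list has that length already.

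**Figure D2:**
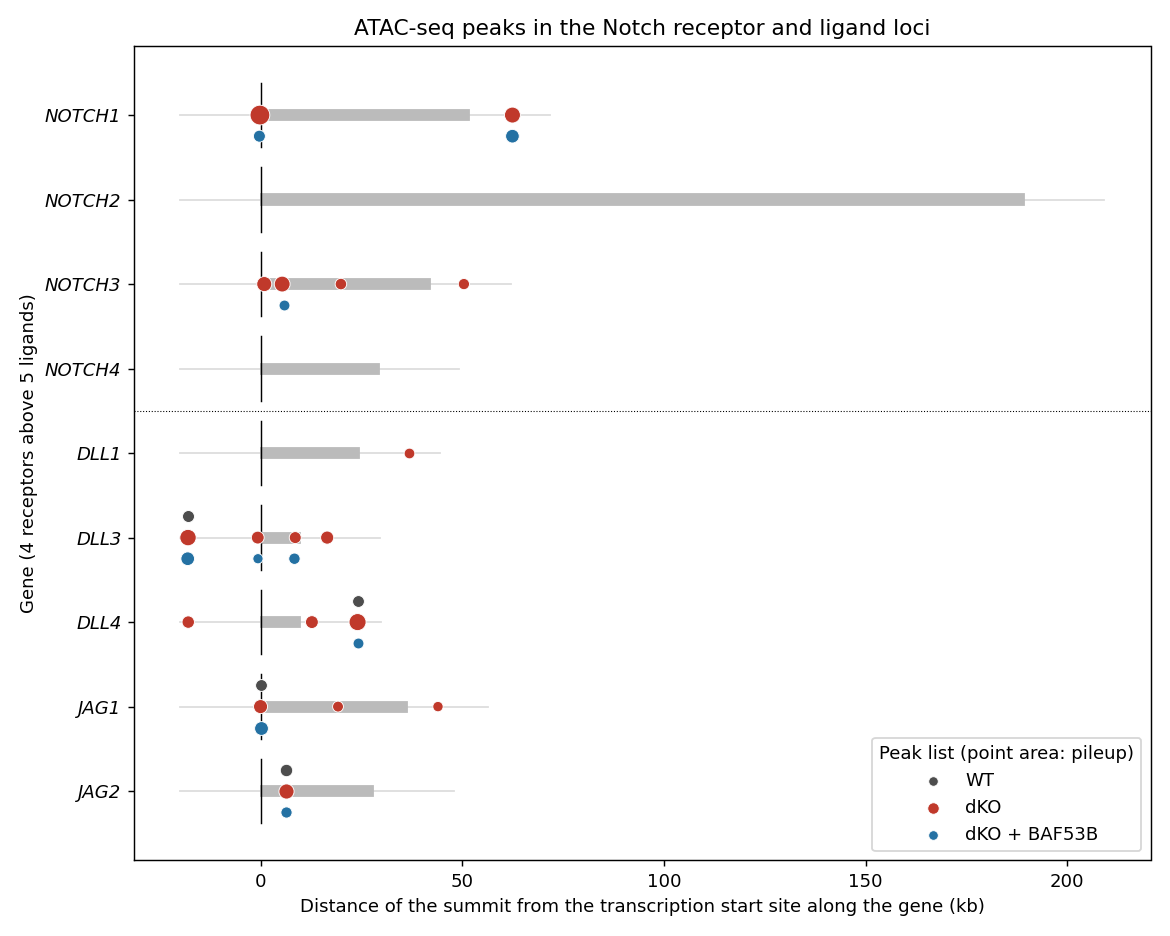
Peak summits in the 9 loci against their distance from the TSS along the gene (kb, horizontal axis), with the gene body as a grey bar, the locus as a thin line and the TSS as a black tick. WT summits are grey, dKO red and dKO + BAF53B blue, with point area proportional to pileup, and the dKO row holds 18 points against 4 for WT and 9 for dKO + BAF53B.

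NOTCH1 (ENSG00000148400.13, chr9:136494433-136546048, minus strand), a receptor with a known role in maintaining neural progenitors, had the peak with the highest pileup of the 9 loci. Its promoter peak in dKO held 109 fragments at the summit (exact 95% Poisson interval 89.5 to 131, counting error only), and the dKO + BAF53B peak held 40 (28.6 to 54.5). No peak was listed in WT. The dKO pileup is above 96.0% of all dKO peaks and above 90.6% of the genes with a dKO promoter peak, whereas the dKO + BAF53B pileup is above 31.3% of the genes with a promoter peak in that list. Scaled for depth, the dKO + BAF53B pileup was 0.369 times that of dKO (exact 95% interval 0.250 to 0.535), the lowest ratio among the 9 regions shared by these lists. The deposited fold was 4.92 in dKO and 2.76 in dKO + BAF53B (log2 ratio -0.83). By fold the dKO peak is above 77.8% of all dKO peaks, below those at the TIMM50 (5.92) and CHAC1 (5.41) promoters. The dKO + BAF53B peak is above 0.35% of its list by fold. Its −log10 q score was 5.56, near the limit of 5 in the lists. The summits lie at -246 bp in dKO and -377 bp in dKO + BAF53B from the TSS, and the region overlaps the lncRNA NALT1 and the microRNA gene MIR4674, so its signal cannot be assigned to NOTCH1 alone. In WT, a call here would have needed about 50 fragments if the local background scaled with depth, and the dKO pileup at WT depth would be 101. Downstream of the gene, a peak of 71 fragments in dKO and 52 in dKO + BAF53B lies 62.4 kb from the NOTCH1 TSS at the promoter of SEC16A.

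NOTCH3 (ENSG00000074181.9, chr19:15159038-15200995, minus strand), a receptor also known from vascular smooth muscle, held 4 dKO peaks, more than any other receptor. The promoter peak, with its summit in intron 1 at 827 bp from the TSS, held 63 fragments in dKO (48.4 to 80.6) and was not listed in WT or dKO + BAF53B. With the local background scaled for depth, a call would have needed 48 fragments in WT and 49 in dKO + BAF53B, below the 58.6 and 62.7 fragments that the dKO pileup scales to. The second peak lies in intron 2, 5.28 kb from the TSS, with 70 fragments in dKO and 33 in dKO + BAF53B, a depth-scaled ratio of 0.474 (0.303 to 0.727). By the deposited fold over local background, which was 3.50 and 2.94, the difference was smaller, with a log2 ratio of -0.25. The other 2 dKO peaks, with 37 fragments in exon 18 and 35 fragments 50.4 kb from the TSS, were near the calling limit. For exon 18 the dKO pileup scales to 34.4 fragments in WT, where a call would have needed 36 if the local background scaled with depth and 32 if it was also lower, as at the peaks shared by both lists, so the lack of a WT peak there does not show a difference.

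NOTCH2 (ENSG00000134250.21, chr1:119911553-120100779, minus strand) had no peak in its 229.2 kb locus in any list. The TSS of the gene record lies 31.1 kb upstream of the canonical transcript start, and no peak lay within 3 kb of either. The nearest listed peaks leave a stretch of 304.7 kb around the TSS with 2 gene starts. Human chromosome 1 also carries the partial copies NOTCH2NLA, NOTCH2NLB, NOTCH2NLC and NOTCH2NLR, with which reads of NOTCH2 can be shared, and of these NOTCH2NLC alone had a promoter peak, of 26 fragments in dKO. The part of shared reads in the absence of NOTCH2 peaks was not tested.

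NOTCH4 (ENSG00000204301.6, chr6:32194843-32224067, minus strand), known mainly from endothelium, had no peak in any list, but neither did its surroundings. No peak of the files used here lies between chr6:28490264 and chr6:33497818, a stretch of 5.01 Mb with 183 protein-coding gene starts that includes the major histocompatibility complex. For the 155 genes that start between 29 and 33 Mb the share with a promoter peak was 0% in each list, beside 28.9%, 61.2% and 48.4% of the 896 genes on the rest of chromosome 6 in WT, dKO and dKO + BAF53B. The lack of NOTCH4 peaks therefore cannot be read as closed chromatin, and the cause of the gap was not tested.

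Among the ligands, JAG1 (ENSG00000101384.12, chr20:10637684-10673999, minus strand) was the one gene of the 9 with a promoter peak in all 3 genotypes. The promoter pileup was 39 fragments in WT (27.7 to 53.3), 55 in dKO (41.4 to 71.6) and 53 in dKO + BAF53B (39.7 to 69.3), and these intervals overlap. The summits lie at -65, -89 and -53 bp from the TSS. The depth-scaled ratio was 1.31 for dKO over WT (0.854 to 2.03) and 0.969 for dKO + BAF53B over dKO (0.652 to 1.44), so neither difference exceeds the counting error. The fold over local background as deposited was 3.82, 3.53 and 3.75. Within its own list the JAG1 promoter is above 44.1%, 46.3% and 65.2% of the genes with a promoter peak. JAG1 is known as the main gene of Alagille syndrome. In dKO alone, intron 5 had a peak of 33 fragments and the flank, 43.9 kb from the TSS inside SLX4IP, had a peak of 30. At WT depth these scale to 30.7 and 27.9 fragments, where a call would have needed 32 and 29 if the local background scaled with depth, and 29 and 26 with the lower background of shared peaks.

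DLL3 (ENSG00000090932.11, chr19:39498895-39508481, plus strand), the ligand that acts as an inhibitor, had the most dKO peaks per 100 kb, 8.07, in the shortest gene. Of its 4 dKO peaks, the 2 in the flanks are promoters of the neighbours TIMM50 and SELENOV, so this density does not belong to DLL3 alone. The DLL3 promoter held 46 fragments in dKO (33.7 to 61.4) and 29 in dKO + BAF53B (19.4 to 41.6) and was not listed in WT. The depth-scaled ratio of dKO + BAF53B over dKO was 0.634 (0.384 to 1.03), which is within counting error. In dKO + BAF53B this is one of the weakest promoter peaks, above 1.5% of the genes with a promoter peak. A peak in exon 7 held 40 fragments in dKO and 36 in dKO + BAF53B, with a ratio of 0.905 (0.560 to 1.46), but the deposited fold was higher in dKO + BAF53B (3.45) than in dKO (2.85). In the flanks, the TIMM50 promoter, at -18.1 kb, was listed at 40, 75 and 52 fragments in WT, dKO and dKO + BAF53B, and the SELENOV promoter, 16.4 kb downstream of the TSS, at 48 in dKO alone.

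JAG2 (ENSG00000184916.9, chr14:105140982-105168824, minus strand) had the same single region in each list, in intron 2 at about 6.26 kb from the TSS. Its pileup was 43 fragments in WT (31.1 to 57.9), 64 in dKO (49.3 to 81.7) and 35 in dKO + BAF53B (24.4 to 48.7). The ratio was 1.38 for dKO over WT (0.925 to 2.09) and 0.550 for dKO + BAF53B over dKO (0.353 to 0.843). The deposited fold was 4.28 in WT, 4.01 in dKO and 3.47 in dKO + BAF53B, so on that scale dKO was lower than WT (log2 ratio -0.10) and the step to dKO + BAF53B was smaller (log2 ratio -0.21). The sequence printed above is internally repetitive: shifted by 17 bases it matches itself at 60.3% of positions, more than 99.2% of the dKO summit windows, whose median is 36.8%. The region also overlaps an lncRNA (ENSG00000257622). Reads in repeats may be assigned with less certainty, and the part of this in the JAG2 peak was not tested.

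DLL4 (ENSG00000128917.8, chr15:40929340-40939073, plus strand), a ligand of endothelial tip cells that also acts in neural tissue, had no peak at its promoter or in its body in any list. Its flanks held the CHAC1 promoter, 24.0 kb from the DLL4 TSS, at 39 fragments in WT, 81 in dKO and 33 in dKO + BAF53B, with a ratio of 1.93 for dKO over WT (1.30 to 2.91) and 0.410 for dKO + BAF53B over dKO (0.265 to 0.621). By the deposited fold the log2 ratios at CHAC1 were 0.39 and -0.87. In dKO alone, peaks were listed 12.6 kb downstream of the TSS with 46 fragments and at -18.0 kb with 43. DLL1 (ENSG00000198719.9, chr6:170282206-170306565, minus strand), the ligand that receptor-bearing progenitors meet on newborn neurons, had a single peak, of 32 fragments in dKO, 36.8 kb from the TSS in an lncRNA (ENSG00000271820). It scales to 29.7 fragments in WT, where 28 would have been needed with the background scaled for depth.

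**Figure D3:**
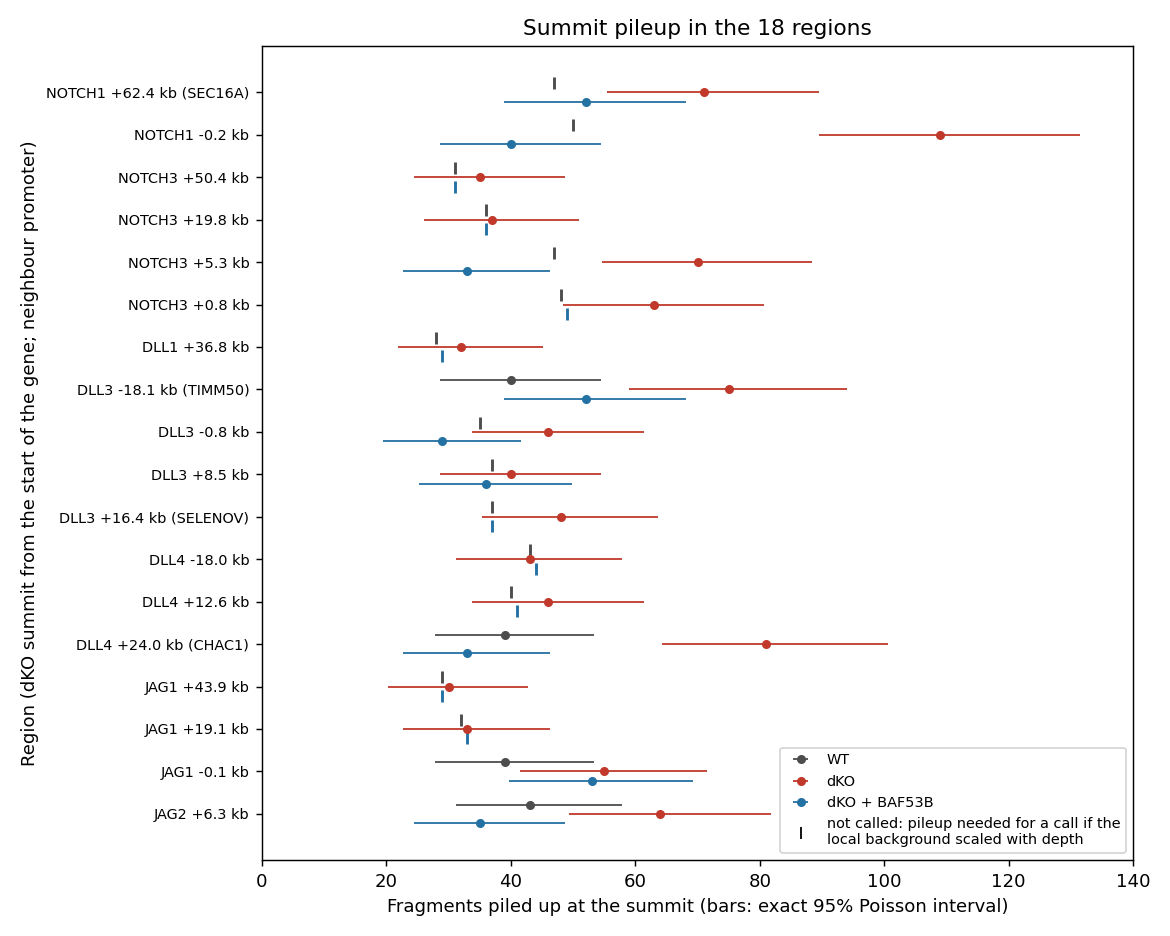
Fragments piled up at the summit (horizontal axis) of the 18 regions, with exact 95% Poisson intervals as bars, in WT (grey), dKO (red) and dKO + BAF53B (blue). A tick marks, for a list without a peak, the pileup a call would have needed if the local background scaled with depth. The NOTCH1 promoter at 109 in dKO stands farthest from its tick, which is that of WT. Ticks are at the depth of their own list, and the points are not scaled for depth.

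Not being listed is a matter of the calling limit as well as of the signal. The pileup a call needs depends on the local background, which is not known where no peak was listed. If that background scaled with depth, the 14 regions without a WT peak would have needed 28 to 50 fragments, and the dKO pileup scaled to WT depth reached that at 10 of them and exceeded it by at least 10 fragments at 4, which were the NOTCH1 promoter, the SEC16A promoter, NOTCH3 intron 2 and NOTCH3 intron 1. This may overstate the need, since the local background in WT was lower than in dKO after depth scaling at all 4 shared regions (0.656 to 0.746 times), and over all 6255 shared peaks the median was 0.838 times. With the background lowered by that median (chosen after the data were seen), the scaled dKO pileup reached the need at 14 of 14 regions and exceeded it by at least 10 at 6, now with the DLL3 and SELENOV promoters. For the 9 regions without a dKO + BAF53B peak the counts were 7 and, with the background lowered to 0.903 times, 9, and 2 exceeded the need by at least 10 either way, NOTCH3 intron 1 and the SELENOV promoter. In all 9 regions shared by dKO and dKO + BAF53B the local background was likewise lower, by this scaling, in dKO + BAF53B. In the counts above the dKO pileup was scaled for depth only. Over all shared peaks the median log2 ratio was 0.71 for dKO over WT and -0.36 for dKO + BAF53B over dKO. A region that followed those medians could miss the need, so the counts as a set do not show a difference beyond that of the whole lists. At the NOTCH1 promoter the dKO pileup scaled to 101.3 fragments in WT, against a need of 50 or 45. That margin is wider than the median ratio of dKO over WT. This region also had the highest dKO pileup of the 9 loci, and no replicate check was possible.

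**Figure D4:**
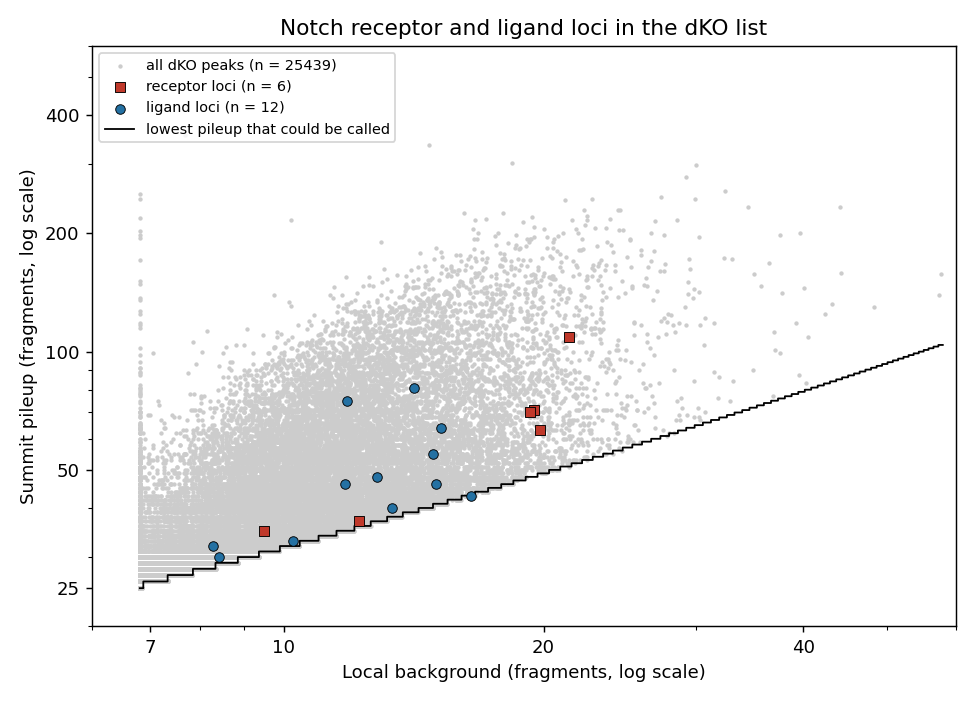
Summit pileup against local background (fragments, both axes logarithmic) for all 25439 dKO peaks (grey, with the few highest values outside the axes), with receptor loci as red squares and ligand loci as blue circles, and the lowest pileup that could be called as a black line. Of the receptor regions, 4 have local backgrounds above 19 fragments, and several ligand regions lie at the line.

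Where a region was called in both lists, the pileups were compared after scaling for depth. From WT to dKO all 4 shared regions were higher in dKO, with log2 ratios from 0.39 to 0.95 and a median of 0.63, beside a median of 0.71 over all 6255 shared peaks, of which 91.5% were higher in dKO. The counting interval lay above 1 at 2 of the 4, the promoters of TIMM50 and CHAC1, which are neighbours and not Notch genes. By the deposited fold over local background, 2 of the 4 were higher and 2 lower in dKO, with a median log2 ratio of 0.15, so this direction depends on the scaling. From dKO to dKO + BAF53B all 9 shared regions were lower, with log2 ratios from -1.44 to -0.05 and a median of -0.66, beside -0.36 over all 11275 shared peaks, of which 79.3% were lower. The interval lay below 1 at 4 regions: the NOTCH1 promoter, NOTCH3 intron 2, the CHAC1 promoter and JAG2 intron 2. In both comparisons the intervals were set against 1 and not against the median of all shared peaks. Set against that median instead, both dKO over WT intervals that exclude 1 hold it. For dKO + BAF53B over dKO, the JAG2 intron 2 interval holds it. The intervals of the NOTCH1 promoter, NOTCH3 intron 2 and the CHAC1 promoter lie below it. These intervals cover counting error only, and this reading was made after the data were seen. By the deposited fold, 6 of the 9 were lower and 3 higher, with a median of -0.21. The 2 comparisons share the dKO list.

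**Figure D5:**
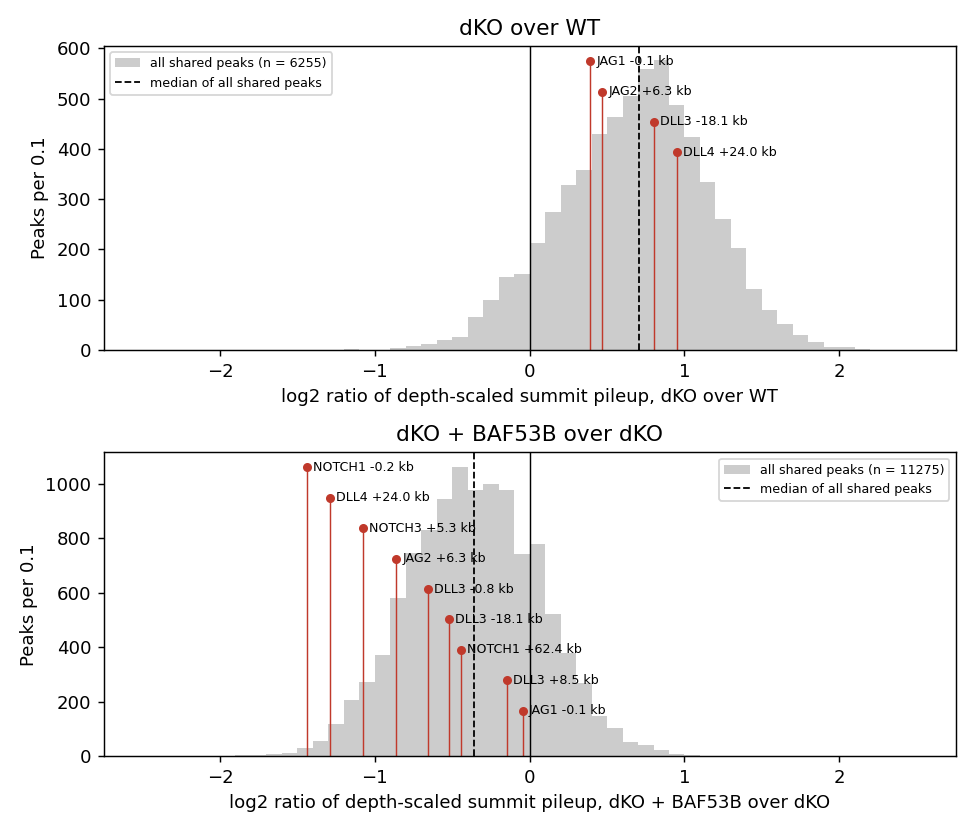
Distribution of log2 ratios of depth-scaled summit pileup for all shared peaks (grey, peaks per bin of 0.1), with the regions of the Notch loci as red lines labelled by gene and distance from its TSS, for dKO over WT (top) and dKO + BAF53B over dKO (bottom). The 4 upper lines lie between 0.39 and 0.95 and the 9 lower lines between -1.44 and -0.05, on the same side of 0 as most shared peaks.

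Of 39 other Notch pathway genes, promoter peaks were listed at 18 for WT, 28 for dKO and 22 for dKO + BAF53B. These are 46.2%, 71.8% and 56.4% of the 39, beside the all-gene shares of 28.2%, 56.4% and 45.0%, and no test of this difference was made. In dKO but not WT, 10 of them (25.6%) had such a peak, near the 28.6% of all genes, and 0 had the reverse. The reverse was also rare among all protein-coding genes. Among the proteins that process the receptor, 6, 8 and 8 of 9 genes had a promoter peak. ADAM10, which makes the first activating cut, held 62, 109 and 73 fragments in WT, dKO and dKO + BAF53B, and PSENEN, a γ-secretase subunit, held 75, 170 and 78. FURIN, which cleaves the receptor during its maturation, had none. Among 5 glycosylation genes 1, 2 and 2 had a peak: POFUT1, the O-fucosyltransferase, held 52, 142 and 65 fragments, POGLUT1 had a peak in dKO and dKO + BAF53B, and the 3 Fringe genes LFNG, MFNG and RFNG had none. Among 4 genes of ligand endocytosis 2, 3 and 1 had one, with MIB1, an E3 ligase that acts on ligands, at 50 fragments in dKO alone.

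In the nucleus, 5, 8 and 6 of 9 genes had a promoter peak, but RBPJ, the DNA-binding partner of the Notch intracellular domain, had none in any list. MAML1 held 66, 122 and 91 fragments and EP300 held 53, 134 and 58. Among 9 regulators the counts were 4, 6 and 5, with NUMB, an inhibitor of Notch that is inherited unequally in dividing progenitors, at 69, 141 and 114 fragments, and NRARP, a feedback inhibitor and Notch target, at 67 in dKO alone. Of the 3 non-canonical ligands DLK1, DLK2 and DNER, only DLK2 had a promoter peak, of 35 fragments in dKO.

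The member regions were also compared with their lists by sequence within 100 bases of the summit. Their median GC content was 65.7% in dKO, beside 61.2% over all dKO peaks. The GC box was present in 9 of the 18 dKO regions (39.4% of all dKO peaks), the RFX-type motif GTTNCCA in 5 (11.9%), the E-box in 5 (15.5%), the CCAAT box in 5 (26.5%), and the SOX-type motifs ACAAAG and ACAATG in 3 (18.3%). The RBPJ motif GTGGGAA was present in 1 (4.67%), at the SELENOV promoter, and the CTCF core CCANNAGGG in 1 (7.14%), at the CHAC1 promoter. The AP-1 motif TGANTCA was present in none, beside 4.82% of all dKO peaks. Matches were counted on both strands and describe letters only, and in JAG1 intron 5 the SOX-type and RFX-type matches overlap. The number of CpG dinucleotides in the window ranged from 0 at JAG2 intron 2, through 15 at the JAG1 promoter and 22 at the NOTCH1 promoter, to 34 at the region 12.6 kb from the DLL4 TSS.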

How the data were processed

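ATAC-seq was performed on 6 samples (2 per genotype). Per the labels and the study's methods, the authors trimmed reads with cutadapt (1.13), aligned them to hg38 with Bowtie2 (2.2.5), removed duplicates with SAMtools (1.3.1) and Picard (1.90) and called peaks with MACS2, for which no version and no options, including any Tn5 shift, are given in the sources used here. deepTools (2.4.2) and HOMER are also named. Per the labels, the replicates of a genotype share 1 list, so no test across samples was possible. The deposited fold is a ratio of summit pileup to local background, each with a pseudocount of 1 added, and the significance deposited with it (−log10 p-value, −log10 q-value) comes from the same quantities, with a −log10 q score of at least 5 at every peak of the deposited lists.

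Pileup and local background were solved from the fold and −log10 p, which gave whole pileups for 100% of peaks in each list, and for 100% of 3000 simulated peaks. The lowest background of a list served as its depth. Depth-scaled ratios have exact binomial intervals and pileups exact Poisson intervals (95%), which cover counting error only. Duplicate removal can limit the pileup at strong sites. Genes were taken from GENCODE version 44, the TSS being the start of the gene record, and an overlap of at least 1 bp counted. Where several peaks overlapped, the strongest was used. All 9 genes are named, and other pathway and marker genes were taken as whole lists. The genes, lists and motifs were chosen with earlier results of these data known. No expression or replicate values were used. Computation was done in Python (3.11.15) with scipy (1.17.1), numpy (2.4.6) and pandas (2.3.3), sequences were read with pysam (0.24.0), and plots were drawn with matplotlib (3.10.9).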

Additional observations from a re-analysis of the deposited data

How the results depend on the processing

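Of 62 values recomputed under other settings, 8 could not move by construction (the WT list has the common length already, and the WT receptor count of 0 can only stay at 0). Of the other 54, 35 stayed within 1.5 times the reported count or within counting error, 19 moved and 0 reversed. Only the log2 ratios could reverse, since each count comes from 1 list and has no direction. The order of the lists did change with equal list length. Ligand loci then held 4 peaks in WT and 3 in dKO, against 4 and 12 in the full lists. Promoter peaks were then at 1 gene in WT and 1 in dKO, against 1 and 4. With a −log10 q of at least 10, the genes with a promoter peak became 0 in WT and 1 in dKO + BAF53B (JAG1), receptor loci kept 1 peak in dKO + BAF53B, ligand loci kept 6 in dKO and 2 in dKO + BAF53B, and the median log2 ratio of dKO + BAF53B over dKO became -0.44. With each list cut to 7880 peaks, promoter peaks were left at 1 gene in dKO (NOTCH1) and 1 in dKO + BAF53B (JAG1), receptor loci kept 3 peaks in dKO and 1 in dKO + BAF53B, and ligand loci kept 3 in dKO and 2 in dKO + BAF53B. Ligand peaks were 2 in WT and 6 in dKO with a flank of 5 kb, 2 and 5 with no flank, and 2 in WT without promoters of neighbouring genes. By the deposited fold the median log2 ratios were 0.15 for dKO over WT and -0.21 for dKO + BAF53B over dKO. The promoter genes did not change with a window of 1 kb, the canonical or all transcript starts, or summits in the window. The cause of these changes was not tested, beyond the fewer peaks that the stricter settings keep. No paired analysis was possible because the replicates of each genotype share 1 pooled peak list. Depth limits the comparison at regions near the calling limit, where a peak not listed in WT or dKO + BAF53B does not show a difference.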

Other observations

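The SELENOV promoter region, 16.4 kb from the DLL3 TSS and listed in dKO alone, is also internally repetitive: shifted by 36 bases its summit window matches itself at 68.5% of positions, above 99.6% of dKO windows. It is the one dKO region of the 18 with an RBPJ match. Both repetitive regions were singled out after their values were seen.

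The surroundings of the genes differed in how many promoters were listed. Within 1 Mb of JAG1, promoter peaks were listed at 3, 4 and 4 of 7 genes for WT, dKO and dKO + BAF53B, and within 1 Mb of NOTCH1 11, 36 and 29 of 81 did. Within 1 Mb of DLL1 the counts were 6, 7 and 6 of 10 although DLL1 itself had none. They were 2, 4 and 5 of 14 around NOTCH2, 11, 19 and 15 of 48 around NOTCH3, and 4, 8 and 9 of 24 around JAG2. Around DLL3 they were 29, 39 and 34 of 65, and around DLL4 19, 32 and 25 of 48. Over all protein-coding genes the shares were 28.2%, 56.4% and 45.0%. Several of these sets are small, and the differences between them were not tested.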
